A study of Mus musculus with 30 samples.

Results

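The NF-κB and TNF receptor signaling genes described here are 10 genes of the count table, chosen by name: Nfkb1, Nfkb2, Rela, Relb and Rel, which encode the subunits of the NF-κB transcription factor, the inhibitor genes Nfkbia and Nfkbib, the receptor gene Tnfrsf1a, the adaptor gene Traf2 and the deubiquitinase gene Tnfaip3. They are 10 of 55487 genes counted, and all 10 were among the 15907 genes with enough counts to be tested. Total RNA depleted of ribosomal RNA was sequenced from C2C12 myotubes, fused muscle cells grown from a mouse myoblast line, in 5 groups of 6 libraries. Every group had differentiated for 4 days and was then kept for 4 further days, 8 days in all. The 2% HS group stayed in 2% horse serum and the SD group was serum deprived. The MET group was serum deprived with 100 nM metformin, the LEU group with 500 nM leucine, and the MET+LEU group with 100 nM metformin and 500 nM leucine together. The sample labels give 6 replicates a group without saying whether they were separate cultures, so the p-values measure the spread between these libraries, which may be technical.

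NF-κB is a pair of Rel family proteins that inhibitors of the IκB family hold in the cytoplasm. When TNF binds its receptor, TRAF2 and other adaptors recruit the IκB kinase complex, the IκB protein is degraded and NF-κB enters the nucleus, where it switches on genes that include Nfkbia and Tnfaip3, whose products stop the signal. NFKB2 and RELB serve a slower, non-canonical branch, and in skeletal muscle NF-κB is known for its place in wasting. None of this activity can be read from a transcript level, which is what was measured.

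Library totals ran from 12784960 to 19604103 counts, with a median of 15434442.5, and the members held between 155 and 2019 counts in every library. Levels are given in CPM, counts scaled to a common library total after TMM normalization, as the lowest, median and highest of 6 libraries or as mean ± SD (n = 6). Differences are log2 fold changes from edgeR's quasi-likelihood test, with p adjusted over all 15907 genes and a threshold of 0.05. A gene is said to have risen or fallen only where it passed it. All 8 skeletal muscle markers examined were detected in all 30 libraries, with a summed level of 9003 to 11252 CPM. The 7 leukocyte and macrophage markers summed to 3.46 to 6.91 CPM, with Adgre1 at 0 in 30 libraries and Ptprc at 0 in 27, and the 5 endothelial markers summed to 0.324 to 1.14 CPM. MET+LEU replicate 6 stood apart, with 5.85% of its counts on nuclear and 7.64% on mitochondrial ribosomal RNA, against at most 1.96% and 0.760% in the other libraries. Since these are bulk samples, fewer cells of a type and less RNA per cell cannot be told apart.

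The promoters of the members whose levels are compared below are shown because NF-κB genes are classic targets of NF-κB itself. The 10-base κB consensus was sought by its name on both strands in RefSeq windows of 300 bases (GRCm38.p6), from 250 bases before to 50 bases after each annotated start. Windows were at hand for 8 of the 10 members, 11 windows in all, and 4 of the 8 held a match: Nfkb2, Rel, Nfkbia and Tnfaip3. Rela, Nfkbib, Tnfrsf1a and Traf2 had none, and 4.51% of the 32851 windows searched held one, a set without the windows of 1 chromosome. That percentage counts windows, whereas 4 of 8 counts genes, some with several windows, so these are unlike shares. Nfkb1 and Relb are named only. The 4 windows below run 5′ to 3′ on the strand of the gene, with matches in capitals, for the member with the largest change (Nfkbia), a member that changed in both directions (Nfkb2), a member with 2 matches that did not pass the threshold on serum deprivation (Tnfaip3) and a member with none that did (Traf2).
Nfkbia, chr12:55492598-55492897, minus strand: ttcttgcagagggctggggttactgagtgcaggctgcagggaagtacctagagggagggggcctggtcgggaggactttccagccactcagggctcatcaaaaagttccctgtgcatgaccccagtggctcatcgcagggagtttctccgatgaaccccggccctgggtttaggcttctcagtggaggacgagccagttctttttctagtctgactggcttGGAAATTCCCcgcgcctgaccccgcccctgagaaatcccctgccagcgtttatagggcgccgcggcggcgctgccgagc
Nfkb2, chr19:46304487-46304786, plus strand: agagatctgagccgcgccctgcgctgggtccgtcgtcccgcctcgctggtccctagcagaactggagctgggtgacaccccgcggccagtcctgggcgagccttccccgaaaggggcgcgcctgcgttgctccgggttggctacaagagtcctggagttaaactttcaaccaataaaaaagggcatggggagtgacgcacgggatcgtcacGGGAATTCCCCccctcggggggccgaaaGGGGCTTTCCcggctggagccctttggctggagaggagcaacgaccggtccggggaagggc
Tnfaip3, chr10:19015361-19015660, minus strand: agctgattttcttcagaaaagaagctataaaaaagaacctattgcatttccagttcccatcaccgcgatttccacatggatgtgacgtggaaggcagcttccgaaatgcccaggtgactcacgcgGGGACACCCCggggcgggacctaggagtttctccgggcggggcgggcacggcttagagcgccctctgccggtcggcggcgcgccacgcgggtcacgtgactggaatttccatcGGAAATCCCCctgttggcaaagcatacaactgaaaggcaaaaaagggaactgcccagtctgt
Traf2, chr2:25546891-25547190, minus strand: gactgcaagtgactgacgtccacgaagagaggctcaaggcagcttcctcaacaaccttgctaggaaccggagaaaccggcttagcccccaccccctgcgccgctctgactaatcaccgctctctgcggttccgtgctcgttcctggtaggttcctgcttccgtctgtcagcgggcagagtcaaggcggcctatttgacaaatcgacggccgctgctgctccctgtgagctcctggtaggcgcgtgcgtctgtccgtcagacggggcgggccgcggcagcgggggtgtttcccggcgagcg
The match in Nfkbia begins 29 bases before the start and lies on the strand opposite the gene. In Nfkb2 matches begin 39, 38 and 11 bases before this start, the first and second overlapping, and 2 further windows of the gene held 2 matches and 1 match, of which 1 is the same genomic site. In Tnfaip3 the matches begin 125 and 12 bases before the start, and another window of the gene, chr10:19011914-19012213, held 0. In Rel a pair of overlapping matches begins 92 and 91 bases before the start. A match describes the letters in a window and is not a site of binding or a cause, and its absence says only that these letters are not in that window.

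The first comparison, SD vs. 2% HS, asked what serum deprivation did to these transcripts. Nfkbia, Nfkb2, Traf2, Tnfrsf1a and Rela rose, 5 of the 10 members, and 0 fell. Of all genes tested 27.8% passed the threshold in this comparison and 13.9% rose. The median log2 fold change of the 10 members was 0.15, beside 0.00 for all genes tested. For Nfkbia, Nfkb2 and Traf2 no SD library was as low as any library of 2% HS. Groups were apart in this way in 3 of 10 members, where 13.6% of all genes had groups that did not overlap in either direction. The 3 are shown by their separate clouds of points in the plot of levels by library.

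**Figure D1:**
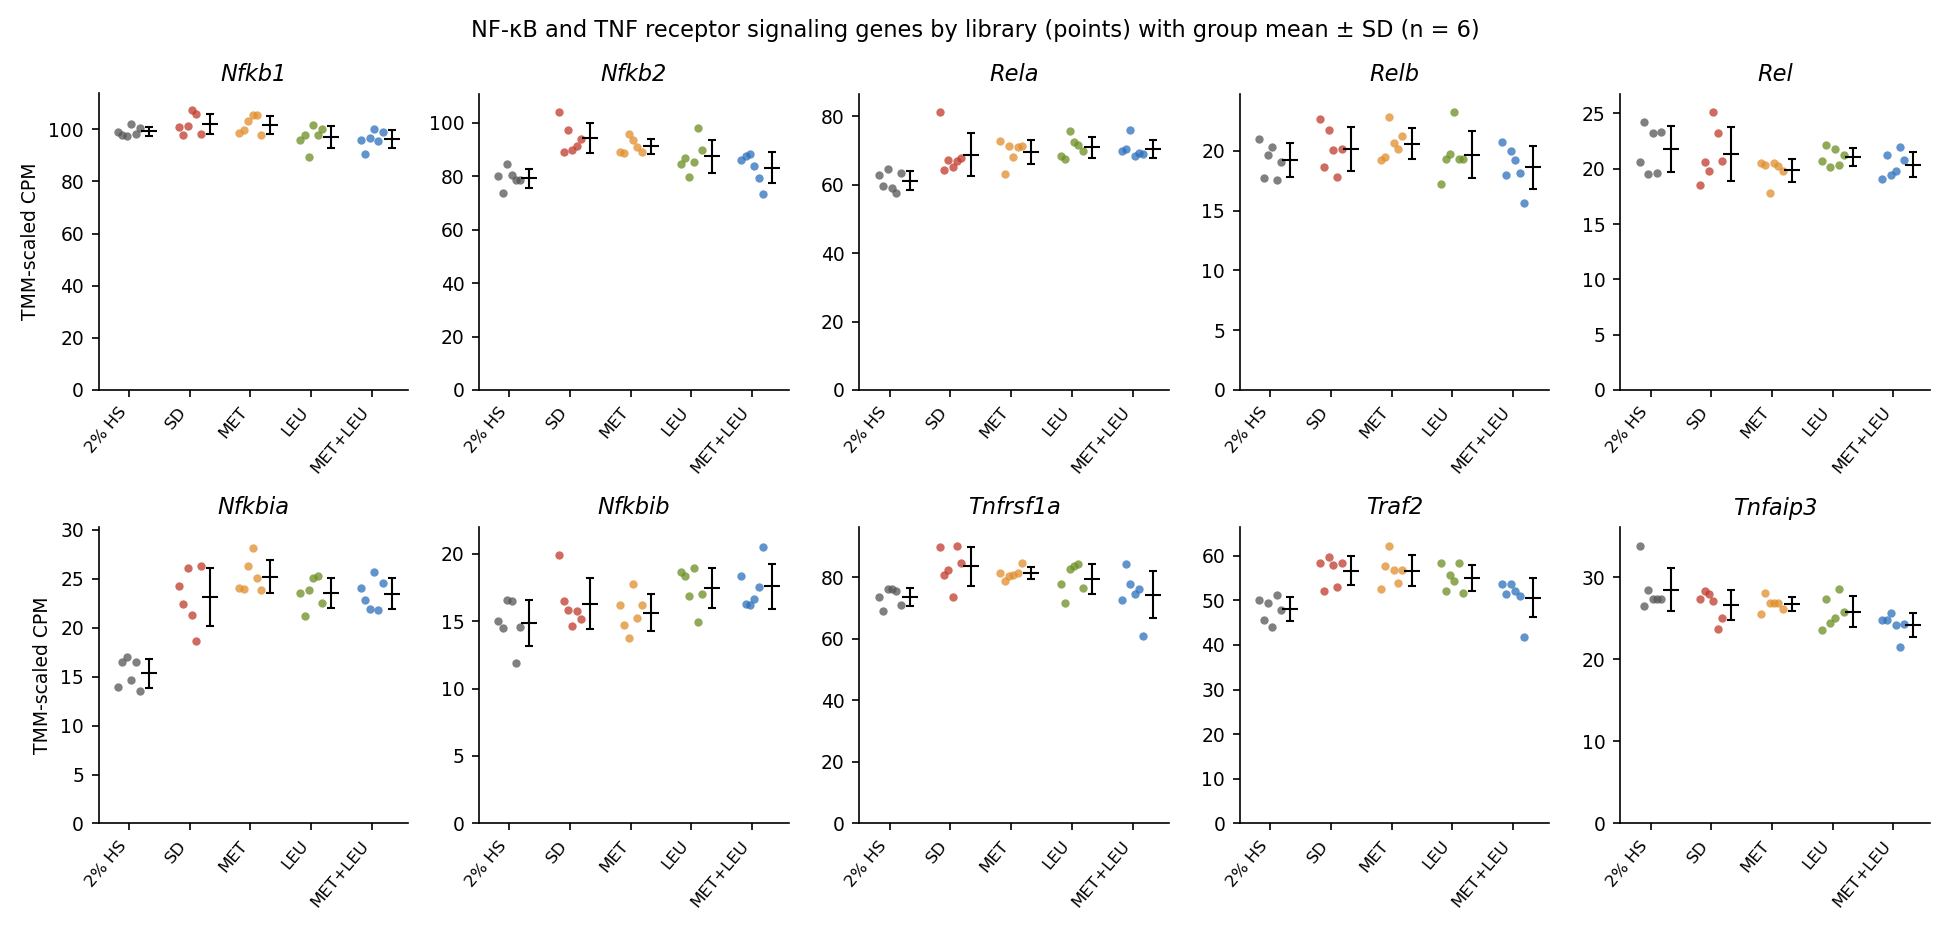
TMM-scaled CPM (vertical axis, from 0) of each of the 10 members in the 6 libraries of each of the 5 groups (horizontal axis), with each point a library and each bar the group mean ± SD (n = 6). Nfkbia shows the widest step relative to its own level, from 13.6 to 17 CPM in 2% HS to 18.7 to 26.3 CPM in SD. Nfkb1 and Rel show none.

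The largest change was that of Nfkbia (ENSMUSG00000021025, chr12:55489410-55492647, minus strand), which encodes IκBα, the main inhibitor of RELA-containing NF-κB, and is itself a textbook NF-κB target. Its level was 13.6, 15.6 and 17 CPM (lowest, median and highest) in 2% HS and 18.7, 23.3 and 26.3 CPM in SD. No SD library reached down to the highest library in 2% HS. The log2 fold change was 0.60 (standard error 0.07, adjusted p = 4.88e-09). With single libraries left out in turn, it lay between 0.56 and 0.65. Relative to Rela, the subunit its product holds, there were 0.256 Nfkbia counts for each Rela count in the median 2% HS library and 0.338 in the median SD library. The ranges, 0.214 to 0.286 in 2% HS and 0.280 to 0.389 in SD, overlapped, and the ratio was not tested.

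Among the subunits, Nfkb2 and Rela rose and Nfkb1, Relb and Rel did not pass the threshold. Nfkb2 (ENSMUSG00000025225, chr19:46304320-46312385, plus strand) encodes the p100 precursor of p52. It was at 73.7, 79.2 and 84.5 CPM in 2% HS and at 89.1, 92.6 and 104 CPM in SD, groups that did not overlap (log2 fold change 0.25, standard error 0.05, adjusted p = 2.82e-05). Exons of Psd and AC114539.1 on the other strand cover 830 bases of its exons. The study used a stranded library kit, but the strand setting of the counting is not given in the sources used here. Whether reads there were counted by strand could thus not be told from the counts. Psd held 32 to 118 counts per library and rose by 0.49 (adjusted p = 0.00626), beside 907 to 1904 counts on Nfkb2. Rela (ENSMUSG00000024927, chr19:5637483-5648130, plus strand) encodes p65, the main activating subunit. It was at 57.6, 61.2 and 64.7 CPM in 2% HS and at 64.2, 67.0 and 81.4 CPM in SD, where the highest library, SD replicate 1, stood alone. The log2 fold change was 0.17 (standard error 0.05, adjusted p = 0.00452), and 0.11 (adjusted p = 0.0430) without that library.

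The other subunits had smaller differences. Nfkb1 (ENSMUSG00000028163, chr3:135584655-135691547, minus strand), which encodes the p105 precursor of p50, was at 99.2 ± 1.83 CPM in 2% HS and 102 ± 3.91 CPM in SD (log2 fold change 0.04, 95% confidence interval -0.03 to 0.11, adjusted p = 0.459). The count of Nfkb2 for each count of Nfkb1 was 0.793 in the median 2% HS library and 0.932 in the median SD library. The ranges, 0.752 to 0.868 and 0.837 to 1.03, overlapped, and this ratio was not tested either. Relb (ENSMUSG00000002983, chr7:19606217-19629438, minus strand), the partner of p52, was at 19.2 ± 1.39 and 20.2 ± 1.83 CPM (0.07, interval -0.07 to 0.21). Rel (ENSMUSG00000020275, chr11:23736847-23770970, minus strand), best known from lymphoid cells, was at 21.8 ± 2.09 and 21.3 ± 2.42 CPM (-0.03, interval -0.16 to 0.10).

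On the receptor side, Tnfrsf1a and Traf2 rose by similar amounts. Tnfrsf1a (ENSMUSG00000030341, chr6:125349362-125362484, plus strand) encodes TNF receptor 1. It was at 69.2, 74.6 and 76.2 CPM in 2% HS and at 73.5, 83.4 and 90.3 CPM in SD (log2 fold change 0.18, standard error 0.05, adjusted p = 0.00597). The groups overlapped through the lowest SD library alone. Traf2 (ENSMUSG00000026942, chr2:25517982-25546940, minus strand) encodes the adaptor and ubiquitin ligase that binds the receptor complex. Its level was 44.1, 48.7 and 51.1 CPM in 2% HS and 52.1, 58.2 and 59.7 CPM in SD, with no overlap (0.24, standard error 0.05, adjusted p = 0.000325). The study reports inflammation-related transcripts from these same samples, so the calls given here are not independent evidence.

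Of the other 2 negative regulators, neither passed the threshold. Nfkbib (ENSMUSG00000030595, chr7:28758251-28767512, minus strand), which encodes IκBβ, was at 14.8 ± 1.70 CPM in 2% HS and 16.3 ± 1.88 CPM in SD (0.13, interval -0.03 to 0.30, adjusted p = 0.239). Genes on the other strand, mainly Sirt2, share 356 bases of its exons, and Sirt2 went the other way, with a log2 fold change of -0.23 (adjusted p = 5.03e-05). Tnfaip3 (ENSMUSG00000019850, chr10:19000910-19015657, minus strand) encodes A20, which edits ubiquitin chains on the TNF receptor complex. It was at 28.5 ± 2.66 CPM in 2% HS and 26.6 ± 1.81 CPM in SD (-0.10, interval -0.22 to 0.02, adjusted p = 0.222). Nfkbia and Tnfaip3 are both textbook NF-κB targets with κB matches in their windows, but only Nfkbia rose here, and the interval for Tnfaip3 lay below that for Nfkbia.

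The calls of all 5 members that rose in SD vs. 2% HS held in every fit tried, including a correction for GC content, leaving out each library and a threshold of 0.01. The median log2 fold change of the 10 members was smaller in some of these fits. It was 0.11 with the GC correction and 0.09 without SD replicate 1, beside 0.0078 and -0.0011 for all genes tested. The 5 myoblast and dividing cell markers summed to 344 to 368 CPM in 2% HS and 302 to 340 CPM in SD. This sum followed Pax7, the most abundant of them, which fell from 190 ± 5.67 to 147 ± 8.43 CPM, while the other 4 did not pass the threshold and 3 of the 5 had log2 fold changes above 0. The 7 leukocyte markers summed to 3.46 to 4.81 CPM in 2% HS and 4.92 to 6.71 CPM in SD, and the one that rose was Cd14, at 11 to 53 counts in these libraries. Their part in the result was not tested.

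MET vs. SD and LEU vs. SD asked whether either compound alone changed these genes during serum deprivation. With MET 0 of the 10 members passed the threshold (0.157% of all genes did), and 0 with DESeq2. At an unadjusted p under 0.05 there were also 0, beside 1597 of all 15907 genes. With LEU 0 members passed (0.553% of all genes did), and 0 with DESeq2. There 1 member had an unadjusted p under 0.05, beside 1588 of all 15907 genes. That one was Nfkb2, at 79.6, 86.2 and 98.1 CPM in LEU (log2 fold change -0.11, interval -0.20 to -0.02, unadjusted p = 0.0212, adjusted p = 0.370). The highest LEU libraries lay within the SD libraries. The log2 fold changes ran from -0.10 for Rel to 0.12 for Nfkbia with MET, and from -0.11 to 0.09 with LEU. For Nfkbia the interval was -0.02 to 0.26 with MET, at 25.2 ± 1.70 CPM, and -0.12 to 0.16 with LEU, at 23.6 ± 1.53 CPM. An adjusted p above the threshold does not show that the levels were the same.

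**Figure D2:**
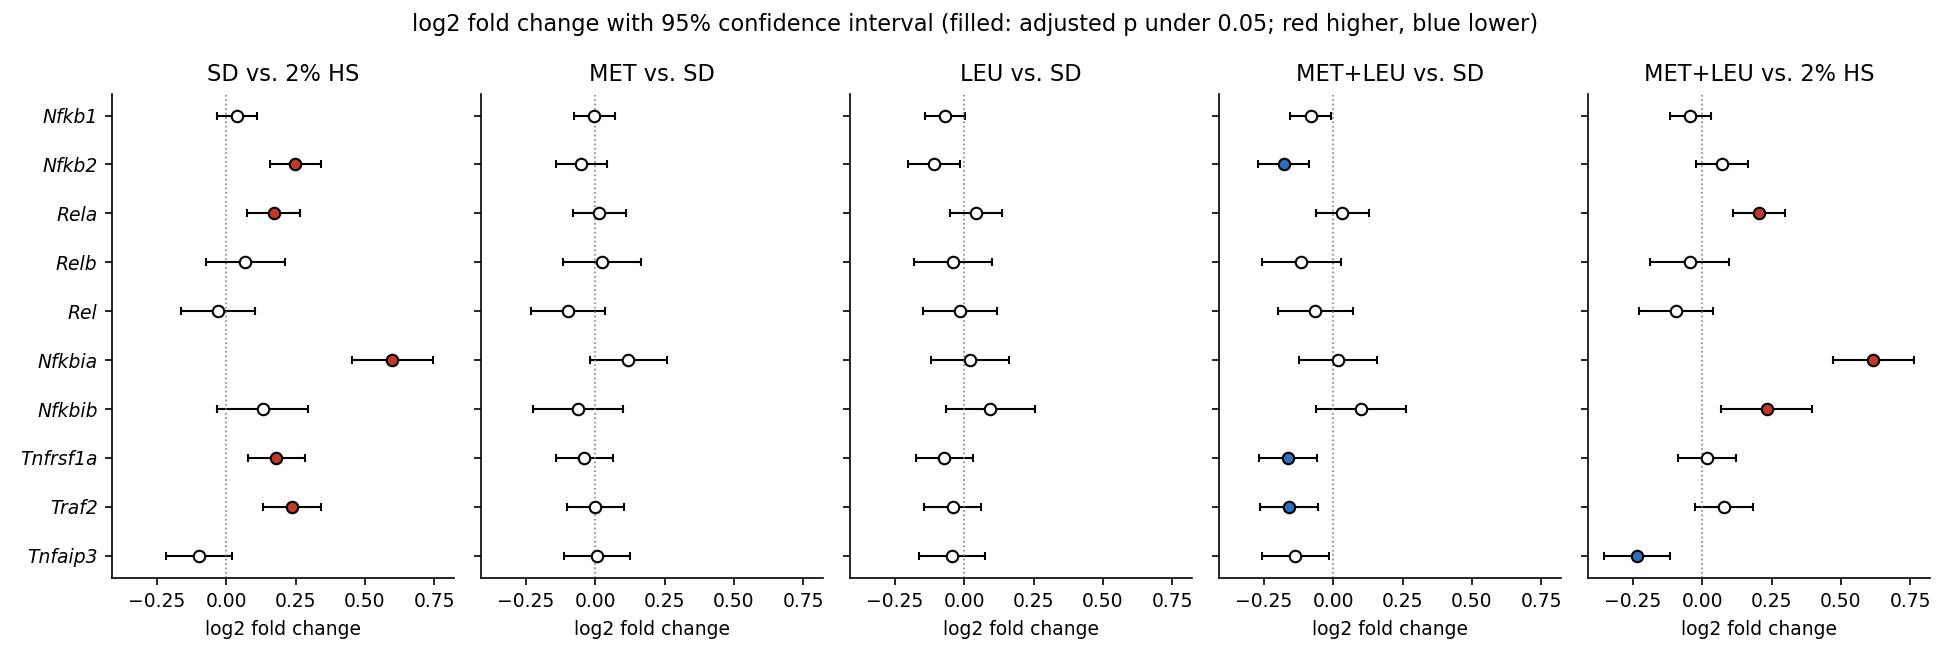
Log2 fold change (horizontal axis) of each of the 10 members (vertical axis) in 5 comparisons, with 95% confidence intervals, where filled points have an adjusted p under 0.05. In SD vs. 2% HS 5 points are filled, all higher, in MET vs. SD and LEU vs. SD 0 are filled, and in MET+LEU vs. SD 3 are filled, all lower.

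MET+LEU vs. SD asked what the combination did. Nfkb2, Tnfrsf1a and Traf2 fell, 3 of the 10 members, and 0 rose, where 18.4% of all genes tested passed the threshold, 10.6% as higher and 7.8% as lower. At an unadjusted p under 0.05 there were 5 members, beside 4961 of all 15907 genes. The median of the 10 members was -0.10, beside -0.01 for all genes tested. Nfkbia, the member with the largest rise in SD, did not pass the threshold. The calls of the 3 genes that fell depended on how the libraries were treated, as given after their values. This comparison and SD vs. 2% HS share the SD libraries, so opposite signs in them are no independent evidence of a return toward 2% HS. The study's discussion states that NF-κB signaling transcripts increased with the combination, and its text names no genes for this. Its results report that transcripts related to inflammation decreased with the combination relative to SD. They also name TNF signaling as a network among the genes altered in SD and reversed by the combination.

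Nfkb2 was at 73.5, 85.0 and 88.4 CPM in MET+LEU, below the lowest SD library, 89.1 CPM, in all 6 libraries (log2 fold change -0.18, standard error 0.05, adjusted p = 0.00427). It was the one member whose groups did not overlap, where 5.34% of all genes had groups that did not. Tnfrsf1a was at 60.9, 75.3 and 84.1 CPM (-0.16, standard error 0.05, adjusted p = 0.02), and Traf2 at 41.9, 51.7 and 53.7 CPM (-0.16, standard error 0.05, adjusted p = 0.0237). In all 3 genes the lowest MET+LEU library was replicate 6, the library with the high ribosomal RNA share. In Psd, which overlaps Nfkb2 on the other strand, the log2 fold change was -0.35 (adjusted p = 0.0728).

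GC content moved with this comparison. Transcripts of Nfkb2 have 59.1% GC, of Tnfrsf1a 56.3% and of Traf2 53.5%, against a median of 49.4% over the genes tested. The GC tilt of a library, the median centred log2 CPM of the 10% of genes richest in GC minus that of the 10% poorest, was highest in SD replicate 1 (0.42) and lowest in MET+LEU replicate 6 (-0.48), and lay between -0.20 and 0.18 in the other 28. With GC content corrected within each library, an alternative chosen after seeing the data, 0 of the 3 genes passed the threshold. The log2 fold change was then -0.07 for Nfkb2 (adjusted p = 0.226), -0.10 for Tnfrsf1a (adjusted p = 0.123) and -0.13 for Traf2 (adjusted p = 0.0584). In the same fit Rela passed as higher (0.14, adjusted p = 0.0134) and Tnfaip3 as lower (-0.16, adjusted p = 0.0470), and 15.8% of all genes passed.

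The calls also changed when libraries were left out, though not to the same genes as with the GC correction. Without MET+LEU replicate 6 Nfkb2 alone passed (-0.15, adjusted p = 0.0118), with Tnfrsf1a and Traf2 both at -0.12 (adjusted p = 0.0690 and 0.0839), and 13.5% of all genes passed. Without SD replicate 1 Nfkb2 (-0.16, adjusted p = 0.0158) and Traf2 (-0.16, adjusted p = 0.0412) passed and Tnfrsf1a did not (-0.15, adjusted p = 0.0513), where 14.1% of all genes passed. Without both libraries, also chosen after seeing the data, 0 members passed, at -0.12 for Nfkb2 (adjusted p = 0.0602), -0.10 for Tnfrsf1a (adjusted p = 0.193) and -0.11 for Traf2 (adjusted p = 0.154), while 11% of all genes passed. The sign was negative for all 3 genes in each of these fits.

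**Figure D3:**
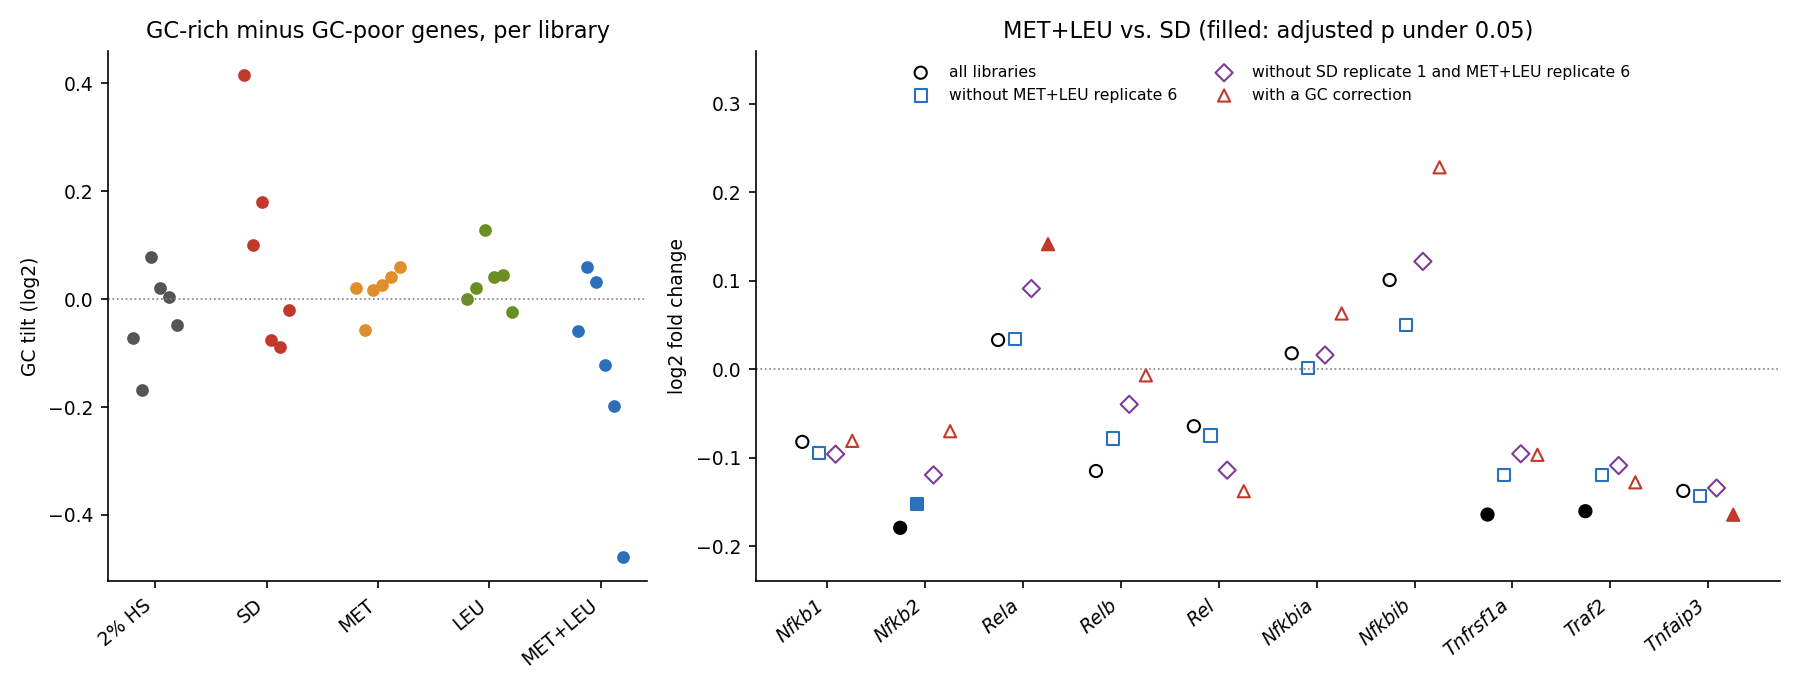
Left, the GC tilt (log2) of each of the 30 libraries by group, with 1 point a library; right, the log2 fold change of each member in MET+LEU vs. SD under 4 fits, with filled symbols for an adjusted p under 0.05. SD replicate 1 at 0.42 and MET+LEU replicate 6 at -0.48 stand at the ends on the left, and on the right Nfkb2, Tnfrsf1a and Traf2 lie below 0 in every fit, with filled symbols in 2, 1 and 1 of them.

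The other 7 members did not pass in MET+LEU vs. SD. Nfkbia was at 21.8, 23.4 and 25.7 CPM in MET+LEU, inside the SD range (log2 fold change 0.02, interval -0.12 to 0.16, adjusted p = 0.893). Rela differed by 0.03 on the log2 scale (interval -0.06 to 0.13) and Nfkbib by 0.10 (interval -0.06 to 0.26). Nfkb1 and Tnfaip3 were at -0.08 (interval -0.16 to -0.01, adjusted p = 0.107) and -0.14 (interval -0.26 to -0.02, adjusted p = 0.102). Relb was at -0.12 and Rel at -0.06, with intervals that included 0. Of the myoblast and dividing cell markers, Mki67, Top2a and Ccnb1, which mark dividing cells, fell in MET+LEU vs. SD and Pax7 and Myf5 did not pass, and the sum of the 5 was 266 to 289 CPM in MET+LEU, below all SD libraries. Their part in the result was not tested.

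Direct tests of the combination against its parts gave few calls. Traf2 was the 1 member that fell in MET+LEU vs. MET (log2 fold change -0.16, standard error 0.05, adjusted p = 0.0421, where 8.69% of all genes passed). That call was lost when the other groups were left out of the fit. At an unadjusted p under 0.05 there were 5 members, beside 3588 of all 15907 genes. All 6 MET+LEU libraries of Nfkb2 lay below all 6 MET libraries, 1 of 10 members where 3.77% of all genes did not overlap, with a log2 fold change of -0.13 that missed the threshold (adjusted p = 0.0673). Against LEU 0 members passed by edgeR or DESeq2 (6.28% of all genes did by edgeR). There 1 member had an unadjusted p under 0.05, again Traf2 (-0.12, unadjusted p = 0.0264), beside 3425 of all 15907 genes. The interaction, the departure of the combination from the sum of both effects, passed for 0 members (0.0503% of all genes) and for 0 with DESeq2. At an unadjusted p under 0.05 it held 0 members, beside 1389 of all 15907 genes. The largest interaction values were -0.12 for Nfkbia (interval -0.32 to 0.07) and -0.12 for Traf2 (interval -0.27 to 0.03). Beside Traf2 against MET, no difference between the combination and either compound passed the threshold in this fit. Counts under other fits, DESeq2 among them, are given at the end.

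MET+LEU vs. 2% HS sets the treated myotubes beside those that kept their serum. Here 3 of 10 members were higher and 1 was lower, where 42.3% of all genes passed, 22.1% as higher and 20.3% as lower. Nfkbia lay above 2% HS in all 6 libraries (log2 fold change 0.62, standard error 0.07, adjusted p = 1.68e-09), as did Rela (0.20, adjusted p = 0.000444). Tnfaip3 was at 21.5, 24.5 and 25.6 CPM, below all libraries in 2% HS (-0.24, standard error 0.06, adjusted p = 0.00117). Groups that did not overlap were thus seen in 3 of 10 members and in 21% of all genes. Nfkbib was higher by 0.23 (adjusted p = 0.0182), a call lost without MET+LEU replicate 6 (0.18, adjusted p = 0.0746) or 2% HS replicate 5 (0.18, adjusted p = 0.0716). Nfkb2, Tnfrsf1a and Traf2 had log2 fold changes of 0.07, 0.02 and 0.08 and intervals of -0.02 to 0.16, -0.09 to 0.12 and -0.03 to 0.18. With the GC correction Nfkb2 passed as higher than 2% HS by 0.14, as 5 members and 43.6% of all genes did in either direction. Traf2 passed as higher by 0.12 without MET+LEU replicate 6 (adjusted p = 0.0466). Without both SD replicate 1 and MET+LEU replicate 6, 6 members passed, where 41.7% of all genes did. Traf2 was then at 0.12 (adjusted p = 0.0302) and Nfkb2 at 0.10 (adjusted p = 0.0437).

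Levels of different genes were compared per kilobase of exon. In 2% HS the order was Tnfrsf1a at 28.4 ± 1.14 CPM per kb, Rela at 19.9 ± 0.919, Nfkb2 at 17.3 ± 0.765, Nfkbia at 9.54 ± 0.920, Traf2 at 9.42 ± 0.535, Nfkb1 at 8.22 ± 0.152, Nfkbib at 6.84 ± 0.786, Relb at 4.95 ± 0.358, Tnfaip3 at 3.94 ± 0.368 and Rel at 2.91 ± 0.280. Neighbours in this order did not overlap between libraries except Nfkbia with Traf2 and Relb with Tnfaip3. In SD Nfkbia had moved to 14.4 ± 1.83 CPM per kb, beside 11.1 ± 0.630 for Traf2, and these still overlapped. The order was the same in the 4 groups other than MET+LEU, where Nfkbib and Nfkb1 changed places and overlapped. The length is that of all annotated exons merged, 12061 bases for Nfkb1, so genes with long alternative exons come out low on this scale.

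By root mean square difference of standardised log2 CPM over the 30 libraries, the tested genes nearest to Nfkb2 were Fkbp10 and Tnrc18 (0.531 SD units each). The nearest to Tnfrsf1a were Tnrc18 (0.518) and Surf4 (0.556), and the nearest to Traf2 were Upf1 (0.524) and Col5a1 (0.558). These 3 members were the ones past the threshold in both main comparisons. The 30 libraries differed in depth and GC tilt, and the part of this in the likeness was not tested.

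The rest of the pathway was examined in lists of other genes that act before and after these members. The ligands were mostly too low to test: Tnf held 0 to 2 counts per library, and 11 of 15 ligand genes of the TNF and IL-1 families had too few counts. The 4 that could be tested did not pass in SD vs. 2% HS or MET+LEU vs. SD. The receptors were the list with the most changes on serum deprivation, with 10 of 14 tested genes higher and 0 lower in SD vs. 2% HS (median log2 fold change 0.24). This share, 71.4%, stands beside 13.9% of all genes that rose. Fas, the death receptor, rose from 12.2 ± 1.97 to 17.8 ± 2.19 CPM (0.54, adjusted p = 2.48e-06). Tnfrsf11b, which encodes the decoy receptor osteoprotegerin, rose from 5.08 ± 0.638 to 7.13 ± 0.518 CPM (0.48, adjusted p = 0.000984), and Tlr3, a sensor of double-stranded RNA, from 2.60 ± 0.468 to 3.52 ± 0.708 CPM (0.44, adjusted p = 0.0306). By edgeR 0 of the 14 passed in MET+LEU vs. SD, where 18.4% of all genes did. At an unadjusted p under 0.05 there were 4, beside 4961 of all 15907 genes. In that comparison 1 receptor passed as higher with the GC correction, and 1 without MET+LEU replicate 6. In MET+LEU vs. 2% HS 10 of the 14 were higher, where 22.1% of all genes were. Without SD replicate 1 the receptors that rose in SD numbered 8, where 12.7% of all genes rose.

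Between receptor and NF-κB, 2 of 17 other adaptors and ubiquitin ligases and 3 of 12 kinases passed on serum deprivation, where 27.8% of all genes did. Among the adaptors, Traf3, a brake on the non-canonical branch, rose by 0.15 (adjusted p = 0.00365) and Irak1, a kinase of IL-1 and Toll-like receptor signaling, fell by 0.10 (adjusted p = 0.0468). The call of Irak1 was lost without SD replicate 1 (-0.09, adjusted p = 0.0905), which left 0 adaptors lower. Of the kinases, Map3k3, Map3k7 and Ikbkg rose by 0.17, 0.14 and 0.13, and 0 fell. MAP3K7 is TAK1, which activates the IκB kinase complex, and Ikbkg encodes its regulatory subunit. With MET+LEU 2 kinases fell and 0 rose relative to SD, where 18.4% of all genes passed and 7.8% fell. The 12 kinases as a list did not lean lower, with 8 log2 fold changes above 0 and a median of 0.07, beside -0.01 for all genes. Map3k14, which encodes NIK, the kinase of the non-canonical branch, went from 76.6 ± 4.54 to 64.4 ± 1.97 CPM, with no overlap (-0.25, adjusted p = 0.000195, and -0.17, adjusted p = 0.00850, with the GC correction). Tab1 fell by 0.15 (adjusted p = 0.0384) and did not pass with the GC correction (-0.05, adjusted p = 0.467), without SD replicate 1 (-0.12, adjusted p = 0.136) or without MET+LEU replicate 6 (-0.14, adjusted p = 0.0818). Among adaptors Rnf31 and Traf4 fell by 0.25 and 0.11 and Ube2n rose by 0.17 with MET+LEU, and of these Rnf31 passed with the GC correction (-0.20, adjusted p = 0.0370). Rnf31 (-0.18, adjusted p = 0.113) and Traf4 (-0.09, adjusted p = 0.105) did not pass without both SD replicate 1 and MET+LEU replicate 6, nor did Traf4 without SD replicate 1 alone (-0.09, adjusted p = 0.0908), while Ube2n did (0.16, adjusted p = 0.0140).

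The other inhibitors and brakes moved in both directions. On serum deprivation 4 of 16 rose and 2 fell, where 13.9% of all genes rose and 13.9% fell. Cyld, a deubiquitinase that restrains the pathway, fell from 161 ± 4.10 to 134 ± 6.56 CPM with no overlap (-0.26, adjusted p = 1.31e-08), and Bcl3, an IκB protein that acts in the nucleus, fell from 14.4 ± 0.479 to 11.4 ± 0.534 CPM (-0.34, adjusted p = 0.000353). Nfkbie, which encodes IκBε, rose by 0.32 (adjusted p = 0.00672). With MET+LEU 4 of 16 rose and 1 fell relative to SD, where 10.6% of all genes rose and 7.8% fell. Nkiras1 rose by 0.37 and Tax1bp1, a partner of A20, by 0.27 with no overlap, and both passed with the GC correction (0.31 and 0.18). Zc3h12a, which encodes an RNase that degrades cytokine mRNAs, fell (-0.24, adjusted p = 0.0292), and with the GC correction it did not pass (-0.17, adjusted p = 0.114), nor without SD replicate 1 (-0.21, adjusted p = 0.0868) or without MET+LEU replicate 6 (-0.20, adjusted p = 0.0835).

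Target genes of NF-κB did not share a direction. Of the 30 listed 16 could be tested, and on serum deprivation 4 rose and 4 fell (median 0.05), beside 13.9% of all genes in each direction. Csf1, the macrophage growth factor, rose from 128 ± 6.34 to 205 ± 14.3 CPM with no overlap (0.68, adjusted p = 2.09e-18). Plau, which encodes urokinase, fell from 34.1 ± 3.01 to 23.7 ± 1.9 CPM (-0.52, adjusted p = 3.60e-07), and Vcam1, an adhesion molecule, from 92.3 ± 2.50 to 67.9 ± 4.08 CPM (-0.44, adjusted p = 2.82e-11). Named after their values were seen, Cd44 and Cflar rose by 0.23 and 0.11, Cxcl1 rose on 1 to 15 counts per library, and Ptgs2 and Ier3 fell by 0.29 and 0.25. With MET+LEU 2 rose and 2 fell relative to SD, where 10.6% and 7.8% of all genes did. Lif, a cytokine of the IL-6 family, fell from 16.2 ± 2.34 to 12.7 ± 1.63 CPM (-0.35, adjusted p = 0.00306) and Plau fell further to 18.9 ± 3.27 CPM (-0.32, adjusted p = 0.00320). Without both SD replicate 1 and MET+LEU replicate 6 Lif did not pass (-0.23, adjusted p = 0.0633) and Plau did (-0.22, adjusted p = 0.0317). Vcam1 rose by 0.15 (adjusted p = 0.0180), a call lost with the GC correction (0.07, adjusted p = 0.304) and without SD replicate 1 (0.10, adjusted p = 0.104).

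**Figure D4:**
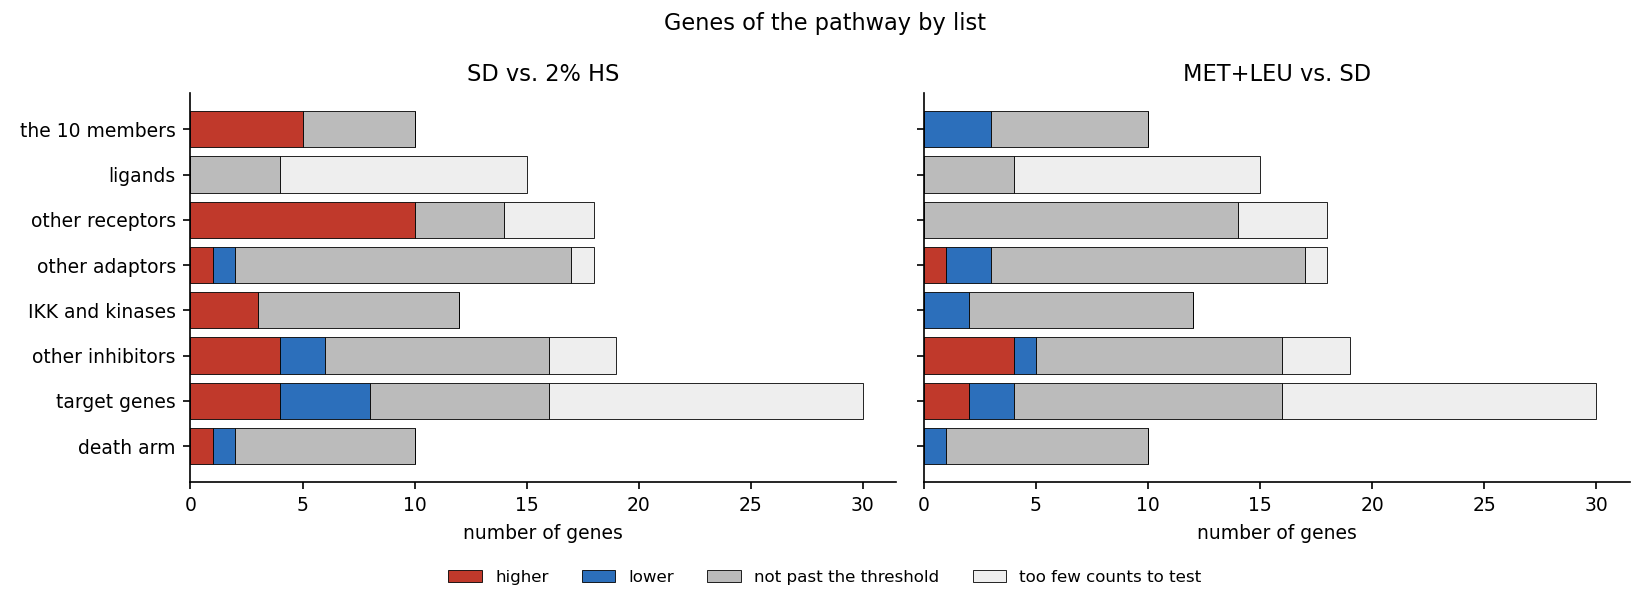
Number of genes (horizontal axis) in each list (vertical axis) that were higher, lower, not past the threshold or too low to test, in SD vs. 2% HS (left) and MET+LEU vs. SD (right). On the left the receptors have 10 of 14 tested genes higher, and on the right they have 0.

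Of 10 genes tested in the death arm of the TNF receptor, 1 fell on serum deprivation and 1 fell with MET+LEU, both times Dab2ip, where 13.9% and 7.8% of all genes fell. Dab2ip, which encodes a scaffold that restrains TNF signaling, fell by 0.12 (adjusted p = 0.0408) in SD vs. 2% HS. Dab2ip was lower still in MET+LEU, at 94.7 ± 7.26 CPM against 109 ± 5.42 CPM in SD, with no overlap (-0.20, adjusted p = 0.000735, and -0.11, adjusted p = 0.0265, with the GC correction). With MET or LEU alone 0 genes passed in any of the 7 lists, where 0.157% and 0.553% of all genes passed. At an unadjusted p under 0.05 the lists held from 0 to 2 genes, beside 1597 and 1588 of all 15907 genes.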

How the data were processed

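RNA-sequencing of C2C12 myotubes was analysed in 5 groups of 6 libraries. The authors deposited raw counts per gene, whole numbers without normalization. The submitters' processing notes name cutadapt 1.16, STAR 2.7.6a, featureCounts 1.6.3, DESeq2 1.30.1 and the build GRCm38, and the annotation release and strand setting are not given in the sources used here. Of 55487 identifiers 55141 matched GENCODE M21, which gave symbols, coordinates, exon lengths and GC content.

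All fits were made in R 4.3.3 after a filter with edgeR 4.0.16 filterByExpr (minimum count 10, minimum total count 15). After TMM scaling, 1 mean per group was fitted over all 30 libraries (estimateDisp, glmQLFit with robust, quasi-likelihood F test, Benjamini-Hochberg adjustment over 15907 genes). The standard error is the absolute log2 fold change divided by the square root of F. The biological coefficient of variation was 0.0709. No library pair held identical counts. Counting error alone lets a count of 0 stand for up to 3 counts.

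The members and the gene lists were chosen with earlier results of these data known. Named genes are the members, in each list up to 3 genes past the threshold (the largest absolute changes at mean log2 CPM 1 or above) for each of SD vs. 2% HS, MET+LEU vs. SD, and the 2 genes nearest in profile to each member past the threshold in both. One gene that this rule names is not reported here.

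Libraries with the same replicate number were not treated as pairs, since 58 of 60 such pairs had correlations of deviations at or under 0.1. Alternatives were DESeq2 size factors, upper-quartile factors, DESeq2 1.42.0 (Wald test), a total count above 5, a fit without the other groups, a block for the replicate number, a threshold of 0.01 and leaving out each library. A GC correction (a lowess offset per library on transcript GC) and leaving out both SD replicate 1 and MET+LEU replicate 6 were added after seeing the data.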

Additional observations from a re-analysis of the deposited data

Results flagged for a closer look

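Each of the 10 members was examined in each of the 5 groups for a single library whose gap to the nearest other exceeded Dixon's 95% critical value, as a share of the range of the 6 libraries. Chance alone flags about 1 in 20 groups, or 2.5 of these 50, and 7 were found. SD replicate 1 was high for Rela, at 81.4 CPM where the other 5 libraries lay between 64.2 and 67.7 CPM, and for Nfkbib, at 19.9 CPM beside 14.6 to 16.5 CPM. MET+LEU replicate 6 was low for Traf2, at 41.9 CPM beside 51.0 to 53.7 CPM. These are the libraries at the ends of the GC tilt, and the transcripts of Rela and Nfkbib have 58.8% and 59.8% GC. MET+LEU replicate 3 was high for Rela, at 75.9 CPM beside 68.5 to 70.5 CPM. MET replicate 3 was low for Rel, at 17.8 CPM beside 19.8 to 20.5 CPM. For Tnfaip3, 2% HS replicate 1 was high, at 33.8 CPM beside 26.5 to 28.4 CPM, and MET+LEU replicate 5 was low, at 21.5 CPM beside 24.2 to 25.6 CPM. Their causes were not tested.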

How the results depend on the processing

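In SD vs. 2% HS the number of members changed was 5 in every alternative, and for MET vs. SD, LEU vs. SD, MET+LEU vs. LEU and the interaction it was 0 in every alternative. In MET+LEU vs. SD it was 3, against 0 without both SD replicate 1 and MET+LEU replicate 6. It was 1 (Nfkb2) with only the libraries of these groups or at a threshold of 0.01. It ran from 1 to 4 when single libraries were left out. With the GC correction the number was made up of other genes, 1 higher (Rela) and 1 lower (Tnfaip3). In MET+LEU vs. MET it was 1, against 2 with upper-quartile factors, with DESeq2 and with the GC correction, and 0 without both libraries, with only the groups compared or at 0.01. It ran from 0 to 3 when single libraries were left out, with 0 without MET replicate 2, 3 or 4 or MET+LEU replicate 6, 2 without MET+LEU replicate 1 or 3 and 3 without MET+LEU replicate 2. In MET+LEU vs. 2% HS it was 4, against 5 with the GC correction, 6 without both libraries, 3 at 0.01, and 3 to 4 when single libraries were left out. Directions that turned were those of changes near 0. Rel in SD vs. 2% HS was 0.0049 with the GC correction, 0.011 without both libraries and -0.088 to 0.0074 when single libraries were left out. Nfkbia in MET+LEU vs. SD ran from -0.040 to 0.049 in such fits. In MET+LEU vs. 2% HS Relb was 0.020 with the GC correction, and Tnfrsf1a was -0.0090 with upper-quartile factors and 0.065 without both libraries and -0.030 to 0.057 when single libraries were left out. The cause was not tested.

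The numbers that replicates share do not pair them, with a mean correlation of deviations of 0.016 for the same number and -0.0031 for different numbers. With the replicate number as a block the members changed were 5 in SD vs. 2% HS, 3 in MET+LEU vs. SD, 4 in MET+LEU vs. 2% HS and 1 in MET+LEU vs. MET, and no call was changed by it.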
